A study of Homo sapiens with 18 samples.

Results

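Expression was compared between siACAT1-2 and siACAT1-1, a pair of small interfering RNAs aimed at the same gene, in UM-UC-3 cells, an established human bladder cancer cell line. The comparison took the 3 libraries of UM-UC-3 cells treated with siACAT1-2 and the 3 libraries of UM-UC-3 cells treated with siACAT1-1, which are 6 of the 18 libraries of the study. They were chosen by their labels, and libraries with the same replicate number were set against each other. Both groups carry the genotype ACAT1 knockdown in the labels, and both received their siRNA with the same lipid reagent. The other UM-UC-3 group received a control siRNA (siNC, 3 libraries), and T24, a further bladder cancer cell line, was treated with the same 3 siRNAs (9 libraries). The labels call the 3 libraries of each group biological replicates and do not say what was repeated. The knockdowns were transient, and each siRNA stands for 1 sequence.

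An siRNA is a short double-stranded RNA of which 1 strand, the guide, is loaded into an Argonaute protein and directs the cleavage of a transcript that it matches along its length. The guide can also lower other transcripts in the way a microRNA does, through its seed, which is the stretch near its 5′ end, when the matching bases lie in a 3′ UTR. Double-stranded RNA can in addition be sensed by the innate immune system. ACAT1 encodes mitochondrial acetyl-CoA acetyltransferase, a thiolase that acts in the breakdown of isoleucine and in the synthesis and use of ketone bodies.

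The counted reads of a library came to between 28224125 and 30689425 with siACAT1-1 and to between 28522446 and 28667905 with siACAT1-2. No pair of libraries within a group was alike to within counting error (chi-square per degree of freedom 11.8 to 121 over 6 pairs). Of 12 epithelial and urothelial markers, KRT18 (96.6 to 115 RPKM over the 6 libraries), KRT8 (27.8 to 31.8) and KRT7 (1.94 to 7.22) were measured, and the other 9, among them the urothelial markers UPK2, UPK3A and GATA3, were under 1 RPKM in all 6 libraries. Of 18 markers of leukocytes, endothelial cells and fibroblasts, 15 were under 1 RPKM in all 6. The sum of these 18 was 172 to 220 RPKM with siACAT1-1 and 144 to 185 with siACAT1-2, and most of it was CD68 (139 to 216 RPKM), a lysosomal protein.

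ACAT1 itself was low with both siRNAs and somewhat lower with siACAT1-2. It measured 47.4, 46.5 and 44.1 RPKM (reads per kilobase of gene, scaled to the total of the library) in siNC replicates 1, 2 and 3. It measured 2.25, 3.59 and 3.29 RPKM with siACAT1-1 and 1.83, 2.79 and 1.86 RPKM with siACAT1-2. The means were 93.4% and 95.3% below siNC. ACAT1 was lower with siACAT1-2 in each of the 3 pairs, although the groups overlapped, and the log2 fold change of siACAT1-2 against siACAT1-1 was -0.54 (SE 0.16, adjusted p = 0.035). That call was lost without the replicate pairing (adjusted p = 0.465) and in 4 of the 6 fits that left out 1 library, which gave log2 fold changes from -0.70 to -0.40. RP11-144G7.2, a transcript on the opposite strand that shares 163 exonic bases with ACAT1, was not called (-0.49, SE 0.22, adjusted p = 0.17). Whether the counting used strand is not stated, so reads over the shared bases cannot be assigned to either gene with certainty.

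Beyond the target, the siRNAs differed at many genes. Of 20144 tested genes, 1642 (8.15%) had an adjusted p under 0.05, which is what "called" means here. With siACAT1-2, 731 genes (3.63%) were called higher and 911 (4.52%) lower. The direction was the same in all 3 pairs for 1632 of the 1642 genes, against 48.3% of all tested genes. The RPKM of the groups did not overlap for 1039 of the 1642, against 17.5% of all tested genes. The median size of the called log2 fold changes was 0.646, and 308 genes differed by at least 1 on the log2 scale (146 higher and 162 lower). The pairing by replicate number decided how many genes were called: without it, 10 genes were called and 1695 had an unadjusted p under 0.05, against 4742 with it. Between pairs, the differences had r from 0.278 to 0.347 over all tested genes; genes of a library are not independent of each other.

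The 10 genes called with and without the pairing, singled out after their values were seen, were 8 that fell and 2 that rose with siACAT1-2. All 10 were also called in each of the 6 fits that left out 1 library and in T24 cells, and none of them overlapped between the groups. The largest fall among them was that of MTMR2, a phosphoinositide phosphatase of the myotubularin family. MTMR2 measured 6.48, 6.04 and 5.70 RPKM in siACAT1-1 replicates 1, 2 and 3, and 1.78, 1.97 and 1.71 RPKM with siACAT1-2. All 3 siACAT1-2 libraries were also below the 3 siNC libraries (4.53, 5.44 and 4.60 RPKM). The log2 fold change was -1.78 (SE 0.13, adjusted p = 1.7e-07).

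CDK6, a kinase that pairs with D-type cyclins at the entry into the cell cycle, measured 5.31, 3.47 and 5.39 RPKM with siACAT1-1 and 1.78, 1.59 and 2.01 RPKM with siACAT1-2. Its siNC values (2.86, 3.16 and 2.80 RPKM) lay between the groups. The log2 fold change was -1.42 (SE 0.15, adjusted p = 1.3e-05). IPO7, an importin that carries proteins into the nucleus, measured 102, 81.8 and 93.5 RPKM with siACAT1-1 and 43.2, 43.1 and 46.8 RPKM with siACAT1-2. The log2 fold change of IPO7 was -1.09 (SE 0.10, adjusted p = 5.4e-06), and siNC (82.5, 81.6 and 86.7 RPKM) lay near siACAT1-1. The other falls were those of CPD, a carboxypeptidase (-1.56), RAI14, an actin-associated protein (-1.27), CACUL1, a cullin-related protein linked to CDK2 (-1.27), COQ2, an enzyme of coenzyme Q synthesis (-1.13), and NUDT4, a Nudix hydrolase of diphosphoinositol phosphates (-0.96), all as log2 fold changes with SE from 0.12 to 0.15.

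The rises were those of MAN2B2, an alpha-mannosidase, and FAXDC2, a member of the fatty acid hydroxylase family. MAN2B2 measured 1.09, 1.35 and 1.1 RPKM with siACAT1-1 and 2.38, 2.37 and 2.31 RPKM with siACAT1-2, a log2 fold change of 0.96 (SE 0.13, adjusted p = 0.00029). FAXDC2 measured 3.99, 3.52 and 4.17 RPKM with siACAT1-1 and 7.67, 7.15 and 8.62 RPKM with siACAT1-2, a log2 fold change of 0.96 (SE 0.12, adjusted p = 7.3e-05).

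**Figure D1:**
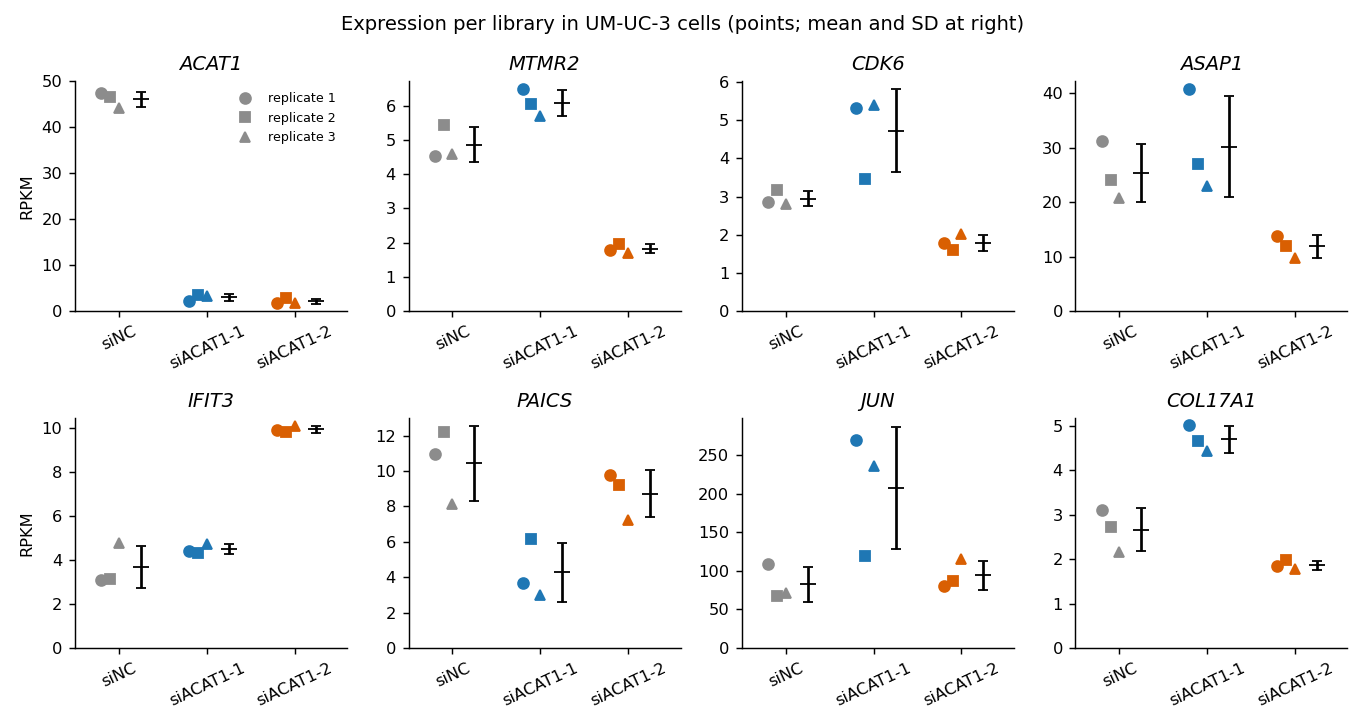
RPKM of 8 genes in each of the 9 UM-UC-3 libraries, grouped by siRNA on the horizontal axis, with 1 marker shape per replicate number; the bars give the mean and SD of 3 libraries. MTMR2, CDK6, ASAP1 and COL17A1 lie lower with siACAT1-2 than in both other groups, IFIT3 lies higher, and JUN is high in siACAT1-1 replicates 1 and 3.

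A stretch of 7 bases in the ACAT1 transcript marked many of the genes that fell. Each 7-base word (7-mer) of the 1537-base ACAT1 transcript was searched, on the strand of the transcript only, in the 3′ UTRs of tested protein-coding genes. Of these, 12995 were matched to a GENCODE release 44 transcript, and 12972 had a 3′ UTR of at least 7 bases. Of the 1390 words found in at least 100 genes, CTAGCAA had the lowest mean log2 fold change: genes with it lay 0.21 below the others (mean difference -0.21 in the fit, and -0.26, -0.16 and -0.21 in pairs 1, 2 and 3). The next lowest was TAGCAAA (-0.20), which shares 6 of the bases. The choice of this word rests on the same comparison, so these values describe it and were not tested. Of all 15934 words found in at least 100 genes, whether in ACAT1 or not, CTAGCAA ranked 2 from the lowest, after a word held by 109 genes, where CTAGCAA was held by 971.

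In the ACAT1 transcript the word occurs 1 time, in the coding part of exon 11 of 12, at chr11:108146277-108146283 (GRCh38, plus strand). The sequences of the siRNAs were not used here, so whether either guide covers these bases was not tested. The stretch is shown with 11 bases on each side, 5′ to 3′ along the transcript and with the word in capitals, for ACAT1 and then for the 3′ UTRs of MTMR2, CPD, RAI14, IPO7, COQ2, CDK6, CACUL1, NUDT4 and DCTPP1, the 8 falls named above and a nucleotide enzyme described below. Sequences and transcript models are from GENCODE.
ACAT1 coding sequence, chr11:108146266-108146294, plus strand: gtctggttgtaCTAGCAAacattaaaatg
MTMR2, chr11:95833757-95833785, minus strand: catttaagtggCTAGCAAatcagtaatta
CPD, chr17:30465548-30465576, plus strand: gagagagagatCTAGCAAaagctaaaact
RAI14, chr5:34831850-34831878, plus strand: catttctgaatCTAGCAAatcctcctttt
IPO7, chr11:9445910-9445938, plus strand: ttaaaaatgaaCTAGCAAttttgtacctg
COQ2, chr4:83264037-83264065, minus strand: ttacttatttgCTAGCAAaattccccctt
CDK6, chr7:92607983-92608011, minus strand: atatgtatcagCTAGCAAtatttctgtga
CDK6, chr7:92605703-92605731, minus strand: gctgtctcactCTAGCAAccatccctcca
CACUL1, chr10:118682558-118682586, minus strand: ctgtacgcataCTAGCAAaggtaatggtg
CACUL1, chr10:118682538-118682566, minus strand: gtaatggtgatCTAGCAAacaaaattggt
NUDT4, chr12:93401693-93401721, plus strand: agtctatgcaaCTAGCAAaaatctgcata
NUDT4, chr12:93401781-93401809, plus strand: tggaacccagtCTAGCAAaatgagaggaa
DCTPP1, chr16:30423882-30423910, minus strand: agatctggtttCTAGCAAattcccagtag

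All 8 genes that fell with and without the pairing held the word in their 3′ UTR, and neither of the 2 that rose did. Among all 12972 genes with a 3′ UTR, 971 (7.49%) held it. It was present in 178 of the 773 genes called lower (23%) and in 19 of the 608 called higher (3.12%). Among genes called lower in both UM-UC-3 and T24 cells, it was present in 121 of 336 (36%), and among those called higher in both, in 8 of 246 (3.25%). Most genes with the word were not called: 18.3% of the 971 were called lower, against 4.96% of the 12001 without it. The word was chosen for the low log2 fold changes of its genes in this UM-UC-3 comparison. That choice in part built in these higher shares among the genes that fell, and the shares were not tested. A match is a description of these letters, and no binding was measured.

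The base after the word was also compared, which is A in ACAT1. The median log2 fold change was 0.02 for genes without the word, -0.13 for the 567 genes with it once and another base after it, and -0.23 for the 305 genes with it once and followed by A, of which 23.3% were called lower. For the 99 genes that held it 2 or more times, the median was -0.28, and 20.2% were called lower. In T24 cells, whose libraries are separate, the word also had the lowest mean difference of the 1390 (-0.25), and the medians in the same order of classes were 0.04, -0.15, -0.25 and -0.16. Set against siNC in UM-UC-3 cells, genes with the word had a median of -0.11 with siACAT1-2 and 0.06 with siACAT1-1; these values share the siNC libraries. None of the 2545 mature human microRNAs in the RefSeq table has the seed complementary to it (0 matches).

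**Figure D2:**
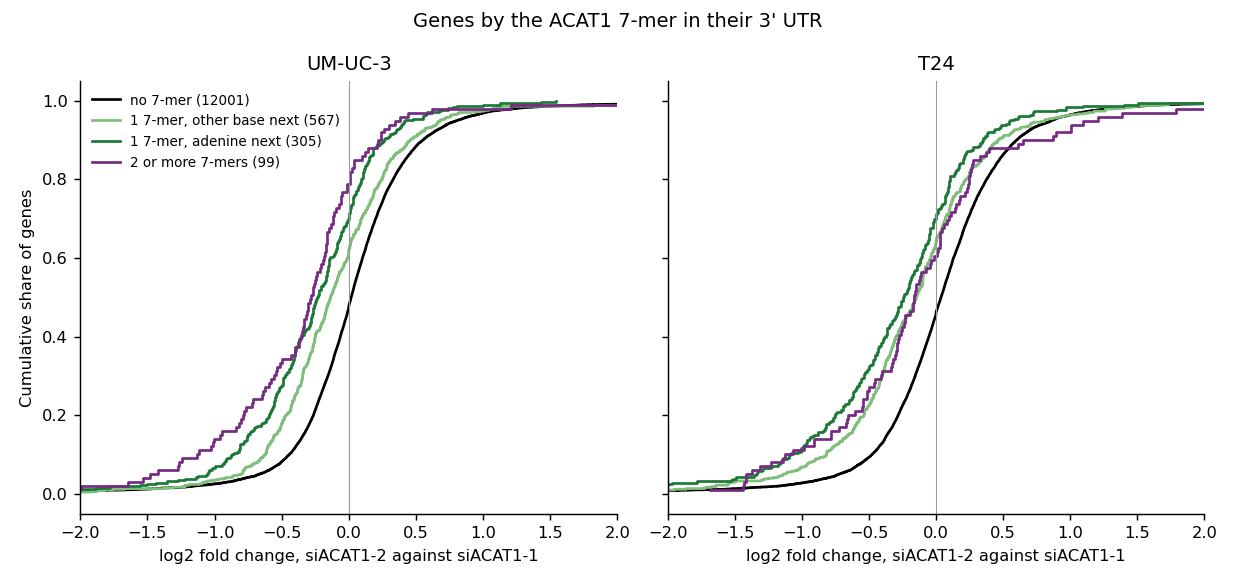
Cumulative share of genes (vertical axis) against the log2 fold change of siACAT1-2 against siACAT1-1 (horizontal axis) in UM-UC-3 and T24 cells, with 1 line for each class of genes by the ACAT1 7-mer in their 3′ UTR and the number of genes in brackets. In both cell lines the lines of genes with the word lie to the left of the line of the 12001 genes without it over most of the range.

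The length and base composition of the 3′ UTR moved with the difference too. With genes divided into 5 classes of equal size, the median log2 fold change was 0.10 in the class with the shortest 3′ UTRs and -0.09 in that with the longest. It was 0.17 in the class with the lowest A and T content and -0.09 in that with the highest. Genes with the word had longer 3′ UTRs (median 3551 bases against 1193). With 3 classes of length, 21.7% of genes with the word and 2.22% of those without it were called lower in the shortest class, 17.6% and 5.31% in the middle class and 18.3% and 7.81% in the longest. With 3 classes of A and T content, from low to high, the shares were 3.38% against 1.75%, 19.8% against 5.27% and 22.4% against 8.06%. The part of length and composition in the difference was not tested further.

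Further falls were found in genes with and without the word. Among called genes named below, NFKBIZ, ITGA2, AJUBA, EDA2R, MXD1, MCM10, ECT2, SLC16A7, RPS6KB1 and UMPS also hold the word. ASAP1, a regulator of ARF GTPases and of focal adhesions, holds no such word in its 3′ UTR and measured 40.6, 27.0 and 22.9 RPKM with siACAT1-1 and 13.9, 12 and 9.76 RPKM with siACAT1-2. Its log2 fold change was -1.36 (SE 0.15, adjusted p = 3.1e-05), and siNC measured 31.1, 24 and 20.7 RPKM. CLGN, a chaperone of the endoplasmic reticulum that holds the word once, measured 18.6, 20.9 and 34.8 RPKM with siACAT1-1 and 3.84, 6.31 and 11.9 RPKM with siACAT1-2, a log2 fold change of -1.87 (SE 0.19, adjusted p = 9.9e-06). Both genes were lower with siACAT1-2 than with siNC. TMCC3, a membrane protein of the endoplasmic reticulum with 3 copies of the word, measured 4.47, 2.13 and 4.86 RPKM against 0.892, 0.964 and 1.94 RPKM (-1.65, SE 0.21, adjusted p = 0.00017). MOB3B and SH3TC2, which hold the word and had fitted log2 fold changes of -2.20 and -1.99, were below 0.4 RPKM in all 6 libraries.

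Among the splicing regulators, 1 of 33 tested genes was called higher and 3 lower (3.03% and 9.09%, against 3.63% and 4.52% of all genes). HNRNPA0, an RNA-binding protein with 2 copies of the word, measured 2.80, 3.99 and 3.34 RPKM with siACAT1-1 and 1.52, 1.93 and 1.70 RPKM with siACAT1-2 (-1.01, SE 0.13, adjusted p = 0.00017). PTBP1, PTBP2 and PTBP3 encode related polypyrimidine tract binding proteins. PTBP1 measured 6.64, 7.58 and 5.23 RPKM against 5.17, 4.90 and 3.45 RPKM, and fell by 0.56 on the log2 scale (adjusted p = 0.012), and PTBP3 fell by 0.45 (adjusted p = 0.035). PTBP2 rose, from 1.31, 1.52 and 1.16 RPKM to 2.6, 2.12 and 2.12 RPKM (0.75, SE 0.17, adjusted p = 0.0099). PTBP1 and PTBP3 each hold the word once and PTBP2 does not.

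Some genes of immediate-early and growth signalling were lower with siACAT1-2 than with siACAT1-1, and the siACAT1-1 libraries varied widely. In the list of ERK output and feedback genes, 9 of 33 tested genes were called lower and 1 higher (27.3% and 3.03%, against 4.52% and 3.63% of all genes). The median log2 fold change of the list was -0.46, against 0.01 for all genes tested. JUN, a subunit of the AP-1 transcription factor, measured 269, 119 and 236 RPKM with siACAT1-1 and 80.2, 87.4 and 116 RPKM with siACAT1-2 (-1.10, SE 0.19, adjusted p = 0.0018), with siNC at 108, 67.2 and 71.3. HBEGF, a ligand of the EGF receptor, measured 23.4, 12.7 and 21.9 RPKM against 6.96, 7.41 and 9.44 RPKM (-1.29, SE 0.24, adjusted p = 0.0030). The phosphatase gene DUSP5, which acts on ERK, measured 15, 5.5 and 26.1 RPKM against 3.71, 3.24 and 11.5 RPKM (-1.36, adjusted p = 0.0034), and its groups overlapped. PHLDA1 fell by 1.14 (adjusted p = 0.0065).

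In these genes siACAT1-1 replicate 2 lay closer to the siACAT1-2 libraries than replicates 1 and 3 did. The number called lower in the list was 13 without that library, and between 2 and 10 without any other single library, with the lowest number without siACAT1-2 replicate 1. Without the libraries of replicate 1 of all UM-UC-3 groups, none of the list was called in either direction (0 genes), and the median was -0.27. By pair, the median of the list was -0.97, -0.19 and -0.30. Set against siNC, the median of the list was 0.70 with siACAT1-1 and 0.23 with siACAT1-2. Without the pairing none of the list was called.

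The targets of YAP and of the TEAD transcription factors, of the Hippo pathway, had the highest share of falls among the lists with at least 15 tested genes. In this list, 11 of 30 (36.7%) were called lower and 0 higher, against 4.52% and 3.63% of all genes, with a median of -0.43. The 4 with the lowest adjusted p were ASAP1, NT5E, AJUBA and IGFBP3. NT5E, the ecto-5′-nucleotidase CD73, measured 49.4, 43.2 and 42.1 RPKM with siACAT1-1 and 24.4, 24.8 and 27.2 RPKM with siACAT1-2 (-0.85, SE 0.11, adjusted p = 0.00014). ANKRD1, a widely used readout of YAP activity, measured 53.4, 5.35 and 15.6 RPKM against 2.41, 2.66 and 7.62 RPKM (-2.05, SE 0.45, adjusted p = 0.0097). Its groups overlapped, and siACAT1-1 replicate 1 was far above the others. Between 3 and 11 genes of the list were called lower when 1 library was left out, with 3 without either library of replicate 1. The median of the list was -0.69, -0.23 and -0.24 in pairs 1, 2 and 3, -0.25 without siACAT1-2 replicate 1, and -0.24, with 2 genes called lower, without the replicate 1 libraries of all groups.

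Most genes of the amino acid response driven by ATF4 had negative log2 fold changes, and most were not called. Of 35 tested genes, 34 had a log2 fold change below 0, with a median of -0.50. In this list, 7 were called lower and 1 higher (20% and 2.86%, against 4.52% and 3.63% of all genes). ATF3, a stress-induced transcription factor that holds the word CTAGCAA once, measured 19.8, 0.968 and 23.4 RPKM with siACAT1-1 and 1.28, 0.717 and 8.54 RPKM with siACAT1-2 (-2.04, SE 0.42, adjusted p = 0.0059). The level in siACAT1-1 replicate 2 was near that in siNC replicate 2 (0.903 RPKM, against 4.46 and 6.07 in siNC replicates 1 and 3). PSAT1, an enzyme of serine synthesis, measured 38.4, 15.8 and 25.5 RPKM against 10.7, 9.49 and 20.5 RPKM (-0.96, adjusted p = 0.014). SLC3A2, the heavy chain of amino acid transporters, and CEBPG, a partner of ATF4, fell by 0.95 and 0.88 (adjusted p = 0.013 and 0.011). Leaving out either library of replicate 1 left 0 genes of this list called, and leaving out siACAT1-1 replicate 2 left 13, so the count rests on single libraries. The median also rested on replicate 1: it was -1.28, -0.16 and -0.21 in pairs 1, 2 and 3, -0.21 without siACAT1-2 replicate 1, -0.32 without siACAT1-1 replicate 1 and -0.18 without the replicate 1 libraries of all groups. Without siACAT1-2 replicate 3 it was -0.75, with 16 genes called lower.

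Among cytokines, chemokines and NF-κB targets, 4 of 35 tested genes were called lower and 1 higher (11.4% and 2.86%, against 4.52% and 3.63% of all genes). Between 1 and 5 were called lower without 1 library, and 0 without the replicate 1 libraries of all groups. The median of the list against the shared siNC libraries was 0.44 with siACAT1-1 and 0.18 with siACAT1-2. NFKBIZ, a nuclear member of the IκB family, measured 2.51, 0.801 and 6.09 RPKM with siACAT1-1 and 0.374, 0.615 and 1.63 RPKM with siACAT1-2 (-1.76, SE 0.31, adjusted p = 0.0021). CXCL8, a chemokine for neutrophils, measured 13.8, 2.59 and 11.1 RPKM against 1.54, 2.55 and 4.24 RPKM (-1.63, SE 0.47, adjusted p = 0.035). Both overlapped between the groups, with siACAT1-1 replicate 2 the lowest of its group. LIF, a cytokine of the interleukin 6 family, fell by 1.00 (adjusted p = 0.0064), while CCL2 rose by 0.67 (adjusted p = 0.034), from 5.14, 4.92 and 3.31 RPKM to 7.86, 8.38 and 5.61 RPKM. Outside the list, BCL2A1, an inhibitor of apoptosis, measured 8.85, 5.57 and 14.9 RPKM against 0.965, 1.99 and 4.96 RPKM (-1.96, SE 0.44, adjusted p = 0.010).

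Some interferon-stimulated genes rose with siACAT1-2, and none of the list fell. Of 54 tested genes, 10 were called higher and 0 lower (18.5%, against 3.63% of all genes called higher), and 44 were not called. The log2 fold change was above 0 for 43 and below 0 for 11, with a median of 0.36. IFIT3, an RNA-binding antiviral protein, measured 4.43, 4.34 and 4.76 RPKM with siACAT1-1 and 9.93, 9.83 and 10.1 RPKM with siACAT1-2 (1.11, SE 0.16, adjusted p = 0.00042). In siNC it measured 3.11, 3.13 and 4.78 RPKM, so only the siACAT1-2 libraries stood apart. IFIT1, of the same family, measured 0.837, 1.33 and 1.11 RPKM against 3.27, 2.68 and 2.06 RPKM (1.24, SE 0.21, adjusted p = 0.0014). LGALS3BP, a secreted glycoprotein, measured 26.3, 32.9 and 29.0 RPKM against 51.1, 55.2 and 49.3 RPKM (0.78, SE 0.14, adjusted p = 0.0021), and SAMD9L rose by 1.21 (adjusted p = 0.0041).

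The other 6 called genes of the list were IFIT2, IFIH1, DDX60, ISG15, OAS1 and UBA7. Of the 10, IFIH1, OAS1 and SAMD9L were below 1 RPKM in all 6 libraries. Without 1 library, between 5 and 11 genes were called higher and 0 lower, with 5 without siACAT1-1 replicate 3. Without the replicate 1 libraries of all groups 2 were called higher, and without the pairing 0. Set against siNC, the median of the list was 0.49 with siACAT1-2 and 0.14 with siACAT1-1.

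Of the sensors of double-stranded RNA and interferons, 2 of 15 tested genes were called higher and 1 lower (13.3% and 6.67%, against 3.63% and 4.52% of all genes). IRF3, the transcription factor that these sensors activate, measured 6.69, 9.73 and 6.57 RPKM with siACAT1-1 and 11.9, 13.9 and 13.2 RPKM with siACAT1-2 (0.73, SE 0.13, adjusted p = 0.0023), and shares 19.3% of its exonic bases with BCL2L12. IKBKE, a kinase that acts on IRF3, rose by 0.55 (adjusted p = 0.040), and TRIM25 fell by 0.53 (adjusted p = 0.043). In antigen processing, 3 of 16 genes (18.8%) were called higher and 0 lower, among them PSMB9 and ERAP2 (0.89 and 0.64). Between 0 and 2 genes of antigen processing were called higher when 1 library was left out. None (0) was called without the replicate 1, 2 or 3 libraries of all UM-UC-3 groups, or without the pairing. Of the RNA interference machinery, DICER1 was the 1 of 17 genes called, and it was lower (-0.50, adjusted p = 0.026).

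Matrix and adhesion genes moved both ways. Of 42 collagens, integrins and laminins, 8 were called lower and 2 higher (19% and 4.76%, against 4.52% and 3.63% of all genes), with a median of 0.00. The number called lower was 3 without siACAT1-1 replicate 1, siACAT1-1 replicate 3 or siACAT1-2 replicate 1. COL17A1, a hemidesmosomal collagen that holds the word CTAGCAA once, measured 5.01, 4.65 and 4.42 RPKM against 1.85, 1.97 and 1.77 RPKM (-1.37, SE 0.18, adjusted p = 0.00017). ITGA2, a collagen receptor subunit, fell by 1.09 (adjusted p = 0.00077), and COL3A1 rose by 1.06 (adjusted p = 0.0037), from 1.23, 1.21 and 1.08 RPKM to 2.81, 2.29 and 2.47 RPKM.

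Of 29 matrix proteases and inhibitors, 4 were called lower and 3 higher (13.8% and 10.3%, against 4.52% and 3.63% of all genes). Without 1 library, 2 or 3 were called lower and 0 to 2 higher. ADAMTS1, a secreted protease, measured 7.75, 2.47 and 8.81 RPKM against 1.79, 1.36 and 3.63 RPKM (-1.45, SE 0.20, adjusted p = 0.00035), and MMP1, a collagenase, measured 1.46, 2.02 and 7.98 RPKM against 0.320, 1.17 and 2.95 RPKM (-1.44, SE 0.24, adjusted p = 0.0015). ADAM9 fell by 0.49, and MMP24 rose by 0.82. Of the growth factor receptors, 3 of 22 fell and 2 rose (13.6% and 9.09%). ROR1, which holds the word, fell by 1.05 and MET by 0.56, while ERBB2 and DDR1 rose by 0.44 and 0.56. EGFR was the remaining gene called lower. In the fits that left out 1 library, 1 or 2 of the receptors were called lower and 0 or 1 higher. Of 35 EMT factors and mesenchymal genes, 4 rose and 3 fell (11.4% and 8.57%). Without 1 library, 0 to 3 of the list were called higher and 0 to 4 lower. Leaving out either library of replicate 1 left 0 called in both directions. TPM2, a tropomyosin, rose from 308, 394 and 375 RPKM to 585, 622 and 577 RPKM (0.69, SE 0.15, adjusted p = 0.0077), and CALD1, an actin-binding protein, fell from 94.3, 70.6 and 61.9 RPKM to 41.0, 46.0 and 48.7 RPKM (-0.76, SE 0.16, adjusted p = 0.0058). None of the 30 tested epithelial junction and urothelial genes was called, with a median of 0.00.

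**Figure D3:**
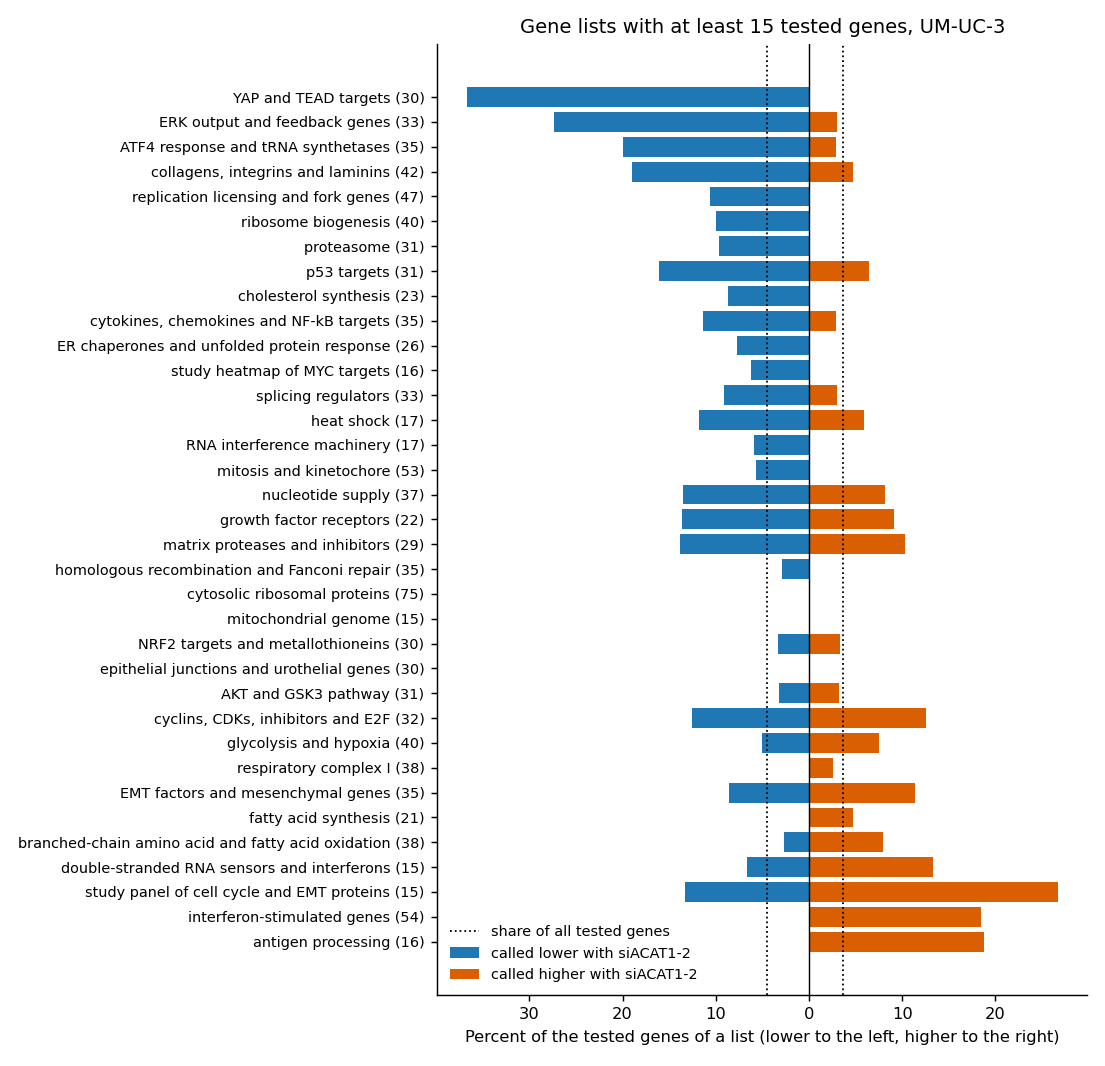
Percent of the tested genes of each list called lower (left) or higher (right) with siACAT1-2 in UM-UC-3 cells, for lists with at least 15 tested genes, whose number is in brackets; the dotted lines mark the shares of all tested genes, 4.52% and 3.63%. YAP and TEAD targets (36.7%) and ERK output genes (27.3%) reach furthest to the left, and interferon-stimulated genes (18.5%) extend only to the right.

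The study followed genes of the cell cycle and of MYC. Of the 16 proteins of cell cycle and EMT that it followed, 15 were tested as genes. Of these, 4 were called higher and 2 lower (26.7% and 13.3%, against 3.63% and 4.52% of all genes). When 1 library was left out, 0 to 3 were called higher and 1 or 2 lower. The number called higher was 0 without siACAT1-1 replicate 1, siACAT1-1 replicate 3 or siACAT1-2 replicate 1. This panel was chosen by the study and is not independent evidence of a direction. MYC measured 59.3, 21.7 and 49.8 RPKM with siACAT1-1 and 13.8, 15.4 and 37.7 RPKM with siACAT1-2 (-0.97, SE 0.23, adjusted p = 0.012), and the groups overlapped. In siNC it measured 39.5, 18.9 and 31.5 RPKM. CCND1 and CCNE1, the cyclins D1 and E1 of the G1 phase, rose by 0.44 and 0.68 (adjusted p = 0.036 and 0.027), CDH2, which encodes N-cadherin, rose by 0.39 (adjusted p = 0.049), and VIM, the intermediate filament vimentin, rose from 184, 208 and 193 RPKM to 262, 290 and 295 RPKM (0.49, SE 0.12, adjusted p = 0.017). CDK6, described above, was the other fall.

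The remaining genes of the panel did not pass the test: E2F1 (0.38), CDK2 (-0.17), CDK4 (0.04), CDKN1A (0.00), CDKN1B (-0.06), SNAI1 (0.41), SNAI2 (-0.65) and MMP9 (-0.16), with adjusted p from 0.18 to 1. CDKN2A was at or below 0.0164 RPKM in all 6 libraries, and no fold change is given for it. The 16th gene, CDH1, which encodes the epithelial adhesion protein E-cadherin, had too few counts to be tested (0 to 0.0326 RPKM over the 6 libraries). CDKN1A, an inhibitor of cyclin-dependent kinases, measured 5.61, 3.03 and 6.57 RPKM with siACAT1-1 and 4.74, 5.40 and 4.98 RPKM with siACAT1-2, above its siNC libraries (2.65, 2.57 and 2.88 RPKM) in all 6 cases. In the wider list of cyclins, their kinases, inhibitors and E2F factors, 4 of 32 genes were called in each direction (12.5%, against 3.63% of all genes called higher and 4.52% lower). Without 1 library, 0 to 5 genes of that list were called higher and 1 to 3 lower. E2F7, a repressor of the E2F family, fell by 1.02 (adjusted p = 0.0051) and E2F3 by 0.50 (adjusted p = 0.020), while CCND3, cyclin D3, rose by 1.00 (adjusted p = 0.0075). In the MYC network, MYC, MXD1 and MGA were lower, which is 3 of 11 genes (27.3%). Between 0 and 2 genes of the network were called lower when 1 library was left out, with 0 without either library of replicate 1.

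The study also displayed 16 MYC target genes, and of these 1 was called: DCTPP1, a pyrophosphatase that clears modified deoxycytidine triphosphates. DCTPP1 measured 1.48, 3.19 and 1.32 RPKM with siACAT1-1 and 0.642, 1.15 and 0.399 RPKM with siACAT1-2 (-1.50, SE 0.25, adjusted p = 0.0014). It holds the word CTAGCAA once, and 42.1% of its exonic bases overlap ZNF771. The other 15 (the helicase subunits MCM2, MCM4, MCM6 and MCM7, the replication genes PCNA, CDC45, RFC4, POLD2 and DUT, and CBX3, CDC20, IPO4, TCOF1, TMEM97 and USP1) had log2 fold changes between -0.29 (CDC45) and 0.31 (PCNA) and were not called. The median of the 16 was -0.03, against -0.31 with siACAT1-1 and -0.32 with siACAT1-2 when each was set against the shared siNC libraries.

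A few genes of DNA replication fell. Of 47 licensing and fork genes, 5 were called lower and 0 higher (10.6%, against 4.52% of all genes called lower). The number called lower was between 0 and 4 when 1 library was left out. GINS3, a subunit of the replicative helicase, measured 2.17, 2.63 and 1.78 RPKM with siACAT1-1 and 1.63, 1.54 and 0.886 RPKM with siACAT1-2 (-0.76, SE 0.16, adjusted p = 0.0063) and holds the word. MCM10 fell by 0.64, ORC2 by 0.49 and DBF4, the partner of the CDC7 kinase, by 0.42. Of 53 genes of mitosis and the kinetochore, 3 were called lower (5.66%, near the 4.52% of all genes) and 0 higher, namely ECT2, CASC5 and CDC25C (-0.56, -0.54 and -0.40). HAUS6 was the 1 of 8 augmin genes called (-0.42), and XRCC2 the 1 of 35 recombination and Fanconi genes (-0.61). Of 31 p53 targets, 5 were called lower and 2 higher (16.1% and 6.45%, against 4.52% and 3.63% of all genes). PLK2 fell by 0.96, PMAIP1 by 1.21 and EDA2R by 1.00, and TP53I3 rose by 0.55. Between 0 and 8 p53 targets were called lower, and 0 to 2 higher, when 1 library was left out.

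In nucleotide supply, 5 of 37 genes were called lower and 3 higher (13.5% and 8.11%, against 4.52% and 3.63% of all genes). The largest rise was that of PAICS, an enzyme of purine synthesis, which measured 3.66, 6.13 and 3.01 RPKM with siACAT1-1 and 9.75, 9.21 and 7.21 RPKM with siACAT1-2 (1.04, SE 0.16, adjusted p = 0.00085). Here the siACAT1-1 libraries stood apart, since siNC measured 10.9, 12.2 and 8.12 RPKM. SAMHD1, which hydrolyses deoxynucleotides, rose by 0.71 (adjusted p = 0.0073), and UMPS, of pyrimidine synthesis, fell by 0.47 (adjusted p = 0.012). In ribosome biogenesis, 4 of 40 genes (10%) were called lower and 0 higher (WDR43, UTP20, TSR1 and DKC1, from -0.66 to -0.41). The 75 cytosolic ribosomal protein genes all had a log2 fold change above 0, with a median of 0.15, and none was called. By pair the median was 0.34, 0.11 and 0.03. Without siACAT1-1 replicate 1, 11 of the 75 were below 0 and the median was 0.06, and without siACAT1-2 replicate 3 it was 0.23.

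Some metabolic genes around ACAT1 were called, beside 3.63% of all tested genes called higher and 4.52% called lower. Of the 7 thiolases, ACAA1 and ACAA2 rose by 0.43 and 0.47 (adjusted p = 0.035 and 0.038) and ACAT1 fell (28.6% higher and 14.3% lower). Without 1 library, 0 to 2 thiolases were called higher. That number was 0 without siACAT1-1 replicate 1 or 3 and without siACAT1-2 replicate 1 or 2. ACAA2, of mitochondrial fatty acid oxidation, measured 9.89, 10.6 and 7.37 RPKM with siACAT1-1 and 14.1, 13.8 and 11.5 RPKM with siACAT1-2, with siNC at 12.3, 12.4 and 13.5. Of 10 tested genes of ketone body synthesis and use, BDH2 rose by 1.38 (SE 0.23, adjusted p = 0.0014), from 0.440, 0.559 and 0.377 RPKM to 1.47, 1.25 and 1.01 RPKM, and SLC16A7, a monocarboxylate transporter, fell by 0.76 (adjusted p = 0.014). Of 38 genes that oxidise branched-chain amino acids and fatty acids, ETFB, ECI2 and DECR1 rose by 0.48 to 0.55 and BCAT1 fell by 0.62. IDI1 fell by 0.56 in cholesterol synthesis, where 2 of 23 genes were called, and ACACB rose by 0.85 in fatty acid synthesis (1 of 21). The shares called higher and lower were 10% and 10% for ketone bodies and 7.89% and 2.63% for oxidation. They were 0% and 8.7% for cholesterol synthesis and 4.76% and 0% for fatty acid synthesis. None of the 15 tested genes of the mitochondrial genome was called.

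The remaining lists had few calls, beside 3.63% of all tested genes called higher and 4.52% called lower. In glycolysis and hypoxia, 3 of 40 genes rose, among them PFKFB3 and PFKL (0.56 and 0.49), and HK2 and ADM fell by 0.56 and 0.85. Of the AKT and GSK3 pathway, the signalling route named in the title of the series, INPPL1 rose by 0.36 and RPS6KB1 fell by 0.45 among 31 genes. Of 31 proteasome genes, PSMD2, PSMC1 and PSMD12 (9.68%) fell by 0.41, 0.38 and 0.39. EDEM1 and DERL2 fell by 0.43 and 0.50 among 26 genes of the unfolded protein response, and HSPB1 rose by 0.63 and HSPA9 fell by 0.41 among 17 heat shock genes. HSPA6, an inducible heat shock protein, was also called lower (-1.44, adjusted p = 0.035), and only its replicate 3 libraries were above 0.4 RPKM (7.09 with siACAT1-1 and 2.78 with siACAT1-2). Of 30 NRF2 targets and metallothioneins, ABCC3 rose by 1.02 and SLC7A11, the cystine transporter, fell by 1.41. Over all 40 lists, 152 of 1120 different genes were called (13.6%, against 8.15% of all tested genes), 52 higher and 100 lower (4.64% and 8.93%, against 3.63% and 4.52%).

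The 15 largest rises among genes of at least 1 RPKM were mostly noncoding or weakly expressed. CTB-129O4.1, a transcript without a known function, measured 4.06, 7.79 and 6.24 RPKM with siACAT1-1 and 18.5, 18.2 and 15.1 RPKM with siACAT1-2 (1.50, SE 0.22, adjusted p = 0.00059). CHGB, the secretory granule protein chromogranin B, measured 2.86, 2.21 and 4.86 RPKM against 6.48, 7.39 and 13.6 RPKM (1.43, SE 0.20, adjusted p = 0.00041), and siNC lay between (4.68, 4.13 and 8.11 RPKM). VKORC1, the vitamin K epoxide reductase, measured 1.36, 1.99 and 1.38 RPKM against 5.26, 4.52 and 2.93 RPKM (1.37, SE 0.23, adjusted p = 0.0016). Its siNC values (4.67, 4.20 and 4.48 RPKM) lay within the range of siACAT1-2, and 58.1% of its exonic bases overlap another transcript, RP11-196G11.3. RP11-196G11.1, at the same locus, rose by 1.36.

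The other 11 rises were AC012307.2, DUX4L50, CTC-490E21.14, RP6-65G23.3, GLTPD2, METTL7A, RP11-326C3.11, WISP2, BDH2, TRIM34 and CTA-963H5.5, none of which exceeded 5 RPKM in any of the 6 libraries. AC012307.2 had 0 RPKM in 2 of the siACAT1-1 libraries and 1.78 to 4.78 RPKM with siACAT1-2. TRIM34, a member of the tripartite motif family, measured 0.435, 0.799 and 0.325 RPKM against 1.59, 1.48 and 0.964 RPKM (1.34, SE 0.26, adjusted p = 0.0039) and shares 83% of its exonic bases with the readthrough gene TRIM6-TRIM34. Among the 15 largest falls, those not yet described were OR5E1P (-2.16), SLC7A11-AS1 (-1.88), RP11-401H2.1 (-1.77), RP11-221J22.2 (-1.76), AC073130.1 (-1.76), ROBO4, an endothelial guidance receptor (-1.72), and ZNF697 (-1.62). For OR5E1P, SLC7A11-AS1, ROBO4 and ZNF697, siACAT1-1 replicate 2 was the lowest of its group and the groups overlapped.

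The same comparison in T24 cells shares no library with UM-UC-3. There, 2958 genes (14.7%) were called, and 684 of the 1642 genes were called in both lines, 656 of them in the same direction (288 higher and 368 lower) and 28 in the opposite direction. The 656 genes are 40% of the UM-UC-3 calls and 22.2% of the T24 calls. Across the 1642 genes, which share libraries, the log2 fold changes of the lines had r = 0.539, and across all tested genes r = 0.159. All 8 falls that held the word and were called without the pairing fell in T24 cells too, CPD by 2.22, COQ2 by 1.52, CACUL1 by 1.41, RAI14 by 1.33, CDK6 by 1.31, IPO7 by 1.28 and NUDT4 by 0.91, and MTMR2 by 2.85. DCTPP1 fell by 2.20, HNRNPA0 by 1.69, CLGN by 1.67, ASAP1 by 1.37 and PTBP1 by 0.66, while CHGB rose by 2.27, VKORC1 by 1.35 and PTBP2 by 0.97.

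The difference between the lines was itself tested, and 221 genes (1.10%) were called for it. Of these, 98 were among the 1642. ABCC3, an organic anion transporter, rose by 1.02 in UM-UC-3 cells and fell by 0.89 in T24 cells (adjusted p of the difference = 0.0018), and IFIT1 was called in UM-UC-3 cells and had a log2 fold change of -0.16 in T24 cells (adjusted p of the difference = 0.021). COL17A1, ADAMTS1, MMP1, HBEGF, PHLDA1, ROR1, IGFBP3, PMAIP1 and TMCC3 were lower in UM-UC-3 cells, with adjusted p of the difference from 0.0021 to 0.034, and none of them was called in T24 cells. For lists, the T24 medians were 0.15 for ERK output genes, 0.12 for YAP and TEAD targets, -0.19 for the ATF4 response and -0.13 for interferon-stimulated genes; a difference of list medians between the lines was not tested.

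**Figure D4:**
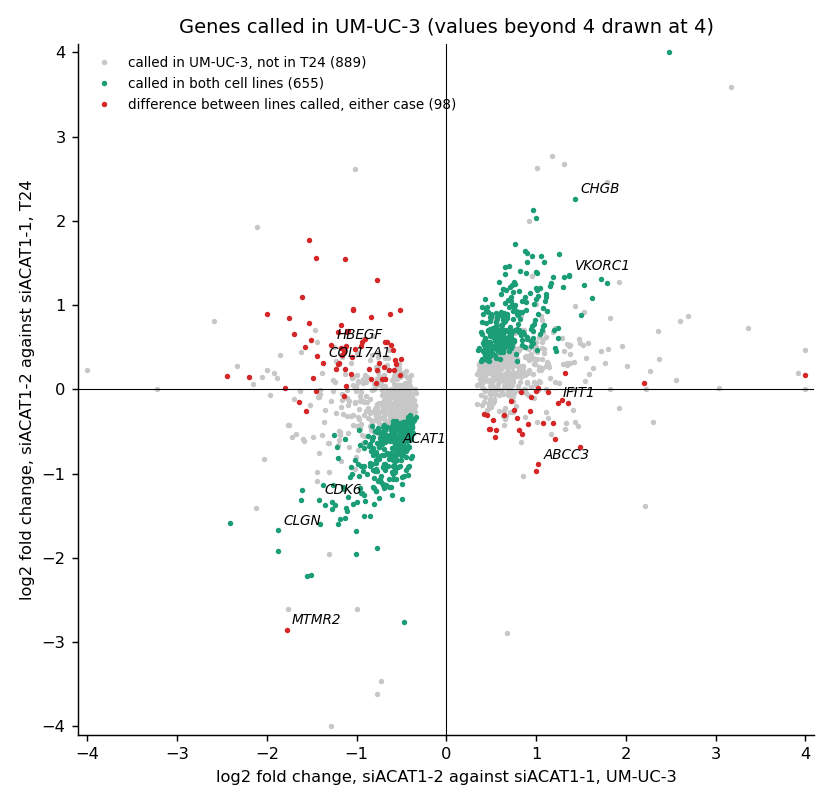
Log2 fold change of siACAT1-2 against siACAT1-1 in UM-UC-3 cells (horizontal axis) and T24 cells (vertical axis) for the 1642 genes called in UM-UC-3, coloured by whether they were also called in T24 and whether the difference between the lines was called (98 genes); values beyond 4 are drawn at 4. MTMR2, CLGN and CDK6 lie at the lower left and CHGB and VKORC1 at the upper right, while COL17A1 and HBEGF lie at the upper left and ABCC3 at the lower right of the axes.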

How the data were processed

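RNA was measured by stranded RNA-seq in 18 libraries. The submitters' processing notes name Trimmomatic 0.36, STAR 2.5.3, Subread 1.5.1 with featureCounts, and the build GRCh38, which the authors used for trimming, mapping and counting. The deposited counts for 39496 genes are not normalized, and the deposited RPKM values are these counts scaled to gene length and total. The annotation release, the strand setting and the use of the molecular identifiers of the kit are not given in the sources used here. All deposited sample columns were matched to a library by name.

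The quasi-likelihood test of edgeR 4.0.16 (R 4.3.3, TMM, filterByExpr) was fitted to the 18 libraries together, with 6 group coefficients and a block for each replicate number of each cell line (8 residual degrees of freedom), and p values were adjusted by Benjamini-Hochberg within each comparison. The block was kept from earlier processing of these data. Deviations from the group means correlated in all 9 same-number pairs of UM-UC-3 libraries (r from 0.115 to 0.576, other numbers between the ACAT1 siRNAs -0.545 to 0.269). The siACAT1-1 replicate 2 library had r = 0.269 with siACAT1-2 replicate 1, above the 0.143 of the replicate 1 libraries of these siRNAs. Deviations cancel within a group for each gene, which in itself lowers r between other numbers, so these values do not test the block. The labels do not say what a number marks. The fit was also run on counts simulated from the fitted model, block included, so that run cannot show whether the block is right. DESeq2 1.42.0, other filters and scalings, and leaving out libraries were alternatives.

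Gene lists were written from general knowledge and not checked against a release. Members, lists and the 7-mer search were chosen with earlier results of these data known. Genes named are ACAT1 and genes overlapping it, the 15 largest rises and falls among called genes of at least 1 RPKM with 1 direction in all pairs, up to 4 called genes per list by adjusted p, all genes of the lists taken from the study, up to 6 called genes with the leading 7-mer, and, chosen after their values were seen, the 10 genes called without the block. XIST and Y-linked genes were left out, and some genes that the rule names are not reported here. 3′ UTRs were those of GENCODE 44 canonical transcripts. The p values rest on the spread left after the replicate block, estimated over all 18 libraries, those of T24 cells included.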

Additional observations from a re-analysis of the deposited data

Results flagged for a closer look

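The difference between siACAT1-2 and siACAT1-1 was not the same in the cell lines for 221 genes, by edgeR's quasi-likelihood test of the difference itself (UM-UC-3 minus T24, 66 higher and 155 lower, 1.10% of the tested genes). Without the replicate block 0 genes were called, with 834 at an unadjusted p under 0.05, and DESeq2 called 558. Among the genes named in the text, the difference of the log2 fold changes was above 0 for ABCC3 (1.91), IFIT1 (1.40), MTMR2 (1.07) and SAMHD1 (0.848). MTMR2 fell in both lines, by 1.78 in UM-UC-3 and by 2.85 in T24 cells.

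It was below 0 for SH3TC2 (-2.89), AC073130.1 (-2.61), MOB3B (-2.35), MMP1 (-1.84), HBEGF (-1.82), IGFBP3 (-1.78), COL17A1 (-1.69), PHLDA1 (-1.60), PMAIP1 (-1.51), TMCC3 (-1.49), ROR1 (-1.44) and ADAMTS1 (-1.43). AC073130.1 fell by 1.76 in UM-UC-3 cells and rose by 0.85 in T24 cells. COL17A1, ROR1, TMCC3, MOB3B and SH3TC2 hold the 7-mer CTAGCAA in their 3′ UTR and were not called in T24 cells. Single outlying values within groups of 3 libraries were described for some genes and were not tested.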

How the results depend on the processing

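The number of genes called in UM-UC-3 cells (1642) was 1653 to 2338 with other scalings, filters or libraries in the fit and with DESeq2. Without the replicate block it was 10, all among the 1642, and the counts of the other comparisons fell with it: 195 in T24 cells, 0 for the difference between the lines, 2 for siACAT1-1 and 11 for siACAT1-2 against siNC, 10 of the 139 called genes named here and 1 of the 152 called list genes. Leaving out 1 library gave 260 to 1526 genes: 260, 1526 and 405 without siACAT1-1 replicate 1, 2 or 3, and 303, 657 and 1298 without siACAT1-2 replicate 1, 2 or 3. Without pair 1, 2 or 3 and the siNC library of that number it was 135, 830 or 504. Over the same fits, 49 to 118 named genes (28, 91 and 74 without a pair) and 32 to 142 list genes (17, 92 and 61) were called. With 2 libraries in a group the spread is taken from all groups. No filter and DESeq2 gave 750 and 558 genes for the difference between the lines, 1188 and 1079 for siACAT1-1 and 645 and 546 for siACAT1-2 against siNC. The cause was not tested.

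The mean difference of genes with CTAGCAA (-0.21) was -0.341 and -0.155 in the classes of shortest and longest 3′ UTRs and -0.134 in that of highest A and T content, chosen after seeing the data. No called gene named here changed sign. Signs turned only for genes not called: CDKN1A (0.0108 with 6 libraries, 0.015 without a filter, 0.0286 with the RPKM filter), POLD2 (0.00551), CBX3 (0.00115) and TMEM97 (0.0121) with the RPKM filter, IPO4 (0.00185 without a filter, 0.0152 with the RPKM filter), and MCM2 without the block (-0.013). Over the fits that left out 1 library, values on both sides of 0 were found for CDK4 (-0.00997 to 0.0928), CDKN1A (-0.297 to 0.221), CDKN1B (-0.16 to 0.00463), POLD2 (-0.0725 to 0.0379), MCM2 (-0.143 to 0.166), MCM4 (-0.218 to 0.00177), MCM6 (-0.161 to 0.0488), MCM7 (-0.0489 to 0.106), CBX3 (-0.101 to 0.0984), TMEM97 (-0.12 to 0.103), USP1 (-0.181 to 0.017) and IPO4 (-0.043 to 0.0698). Leaving out a pair turned CDK4 (-0.0263), CDKN1A (0.127 and 0.269), MMP9 (0.0399), POLD2 (0.0253 and 0.0117), MCM2 (-0.0264), MCM4 (0.0325), MCM6 (0.0506), MCM7 (-0.0181), CBX3 (0.0934), TMEM97 (0.103 and 0.00547) and IPO4 (0.0914).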
